A study of Mus musculus with 22 samples.

Results

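Skeletal muscle fibres make their own isoforms of many enzymes that other tissues also use, and 10 genes of that kind were followed here in mouse connective tissue. They were Ckm, Ckmt2, Mb, Pygm, Phkg1, Eno3, Pgam2, Cox6a2, Cox7a1 and Cox8b, chosen by name out of 12393 genes measured. The choice was made with earlier results of these data known. Shares of the 10 genes set beside those of all probes therefore describe the list and test nothing. Each gene was read from the probe annotated to it alone that had the highest mean over all 22 samples, and all 10 genes had such a probe. The samples were loose connective tissue from under the skin of the trunk, taken from male C57BL/6 mice with body weights of 19 to 24 g. They fell into ex vivo stretched and ex vivo shortened tissue (4 animals), and in vivo stretched and in vivo shortened tissue (7 animals). Each animal gave both a stretched and a shortened piece, assigned at random, so the replicates are animals and the differences were taken within animals. The labels give no other treatment and no altered allele for any group, each piece was whole tissue, and the force and duration of the stretch are not given in the sources used here. By its title the study asked whether static stretch brings up muscle-related genes in fibroblasts of this tissue.

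Contracting muscle spends ATP quickly, and the products of these genes keep the supply up. The muscle creatine kinases store and move phosphate on creatine, myoglobin holds oxygen inside the fibre, and muscle glycogen phosphorylase with its kinase releases glucose units from glycogen. Muscle enolase and phosphoglycerate mutase carry out late steps of glycolysis, and the heart and muscle subunits of cytochrome c oxidase sit in the last complex of the respiratory chain. Brown adipocytes also use Cox7a1 and Cox8b, and for this reason markers of adipocytes were read beside them.

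The proximal promoters of 3 members are shown because Ckm had the largest difference between stretched and shortened pieces in vivo, while Cox7a1 and Cox8b had the smallest differences ex vivo. All 3 genes lie on chromosome 7, as does Cox6a2, while Pgam2 and Eno3 lie on chromosome 11, Phkg1 on 5, Ckmt2 on 13, Mb on 15 and Pygm on 19. The sequences are the 250 bases before the RefSeq start of transcription (assembly GRCm38.p6), written 5′ to 3′ on the strand of the gene. Capitals mark matches to CANNTG, the E-box to which the MyoD family of muscle transcription factors binds. The Ckm window is chr7:19410844-19411093 on the plus strand, the Cox7a1 window chr7:30183921-30184170 on the plus strand and the Cox8b window chr7:140900447-140900696 on the minus strand.
Ckm: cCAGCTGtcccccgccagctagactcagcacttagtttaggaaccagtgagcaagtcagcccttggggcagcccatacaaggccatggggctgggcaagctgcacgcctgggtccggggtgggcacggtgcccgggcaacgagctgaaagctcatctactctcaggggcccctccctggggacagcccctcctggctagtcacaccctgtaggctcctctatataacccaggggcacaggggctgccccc
Cox7a1: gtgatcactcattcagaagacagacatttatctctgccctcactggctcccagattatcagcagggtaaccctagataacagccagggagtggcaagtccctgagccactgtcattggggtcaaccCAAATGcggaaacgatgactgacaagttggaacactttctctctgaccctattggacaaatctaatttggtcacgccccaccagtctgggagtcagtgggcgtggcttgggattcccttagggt
Cox8b: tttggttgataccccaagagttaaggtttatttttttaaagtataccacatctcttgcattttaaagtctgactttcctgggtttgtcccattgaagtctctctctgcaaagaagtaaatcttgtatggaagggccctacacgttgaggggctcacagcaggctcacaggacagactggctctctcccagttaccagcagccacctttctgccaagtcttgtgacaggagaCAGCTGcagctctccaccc

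RefSeq windows were at hand for 9 of the 10 members, 11 windows in all since Mb has 3. CANNTG, which reads the same on both strands apart from its free bases, occurred in 11 of 11 member windows and in 66.2% of all 32851 windows of that length. The E-box form CAGCTG, which is contained in CANNTG, occurred in 7 of 11 member windows, those of Ckm, Ckmt2, Pygm, Pgam2, Cox8b and 2 of the Mb windows, against 13.0% of all windows. These 2 Mb windows overlap (chr15:77022788-77023037 and chr15:77022728-77022977), so they are not separate stretches. By gene, CAGCTG occurred in 6 of 9 members, and it was absent from the windows of Cox7a1, Eno3 and Phkg1. The MEF2 motif, searched on both strands, had 0 matches in the member windows and was found in 0.508% of all windows. These matches describe letters in a short window and not sites of binding.

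The deposited values were log2 signals of 22626 probes, control probes left out. Sample medians lay between 6.85 and 6.90 ex vivo and between 7.28 and 7.41 in vivo, so the settings looked normalized apart, and levels are compared within a setting unless stated. The connective tissue markers were present in every piece: the mean signal of 10 of 10 fibroblast genes, Col1a1 among them, was 10.73 to 11.25 in ex vivo stretched, 10.91 to 11.34 in ex vivo shortened, 12.19 to 12.57 in in vivo stretched and 12.54 to 12.71 in in vivo shortened tissue. Markers of skeletal muscle fibres were not even across the pieces. The mean signal of 25 sarcomere genes measured out of 32 listed ran from 4.87 to 9.15 in ex vivo stretched, 4.97 to 5.47 in ex vivo shortened, 5.00 to 10.11 in in vivo stretched and 5.07 to 10.21 in in vivo shortened tissue. In whole tissue, fewer cells of a type and less RNA per cell cannot be told apart. The number of arrays limits the precision.

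**Figure D1:**
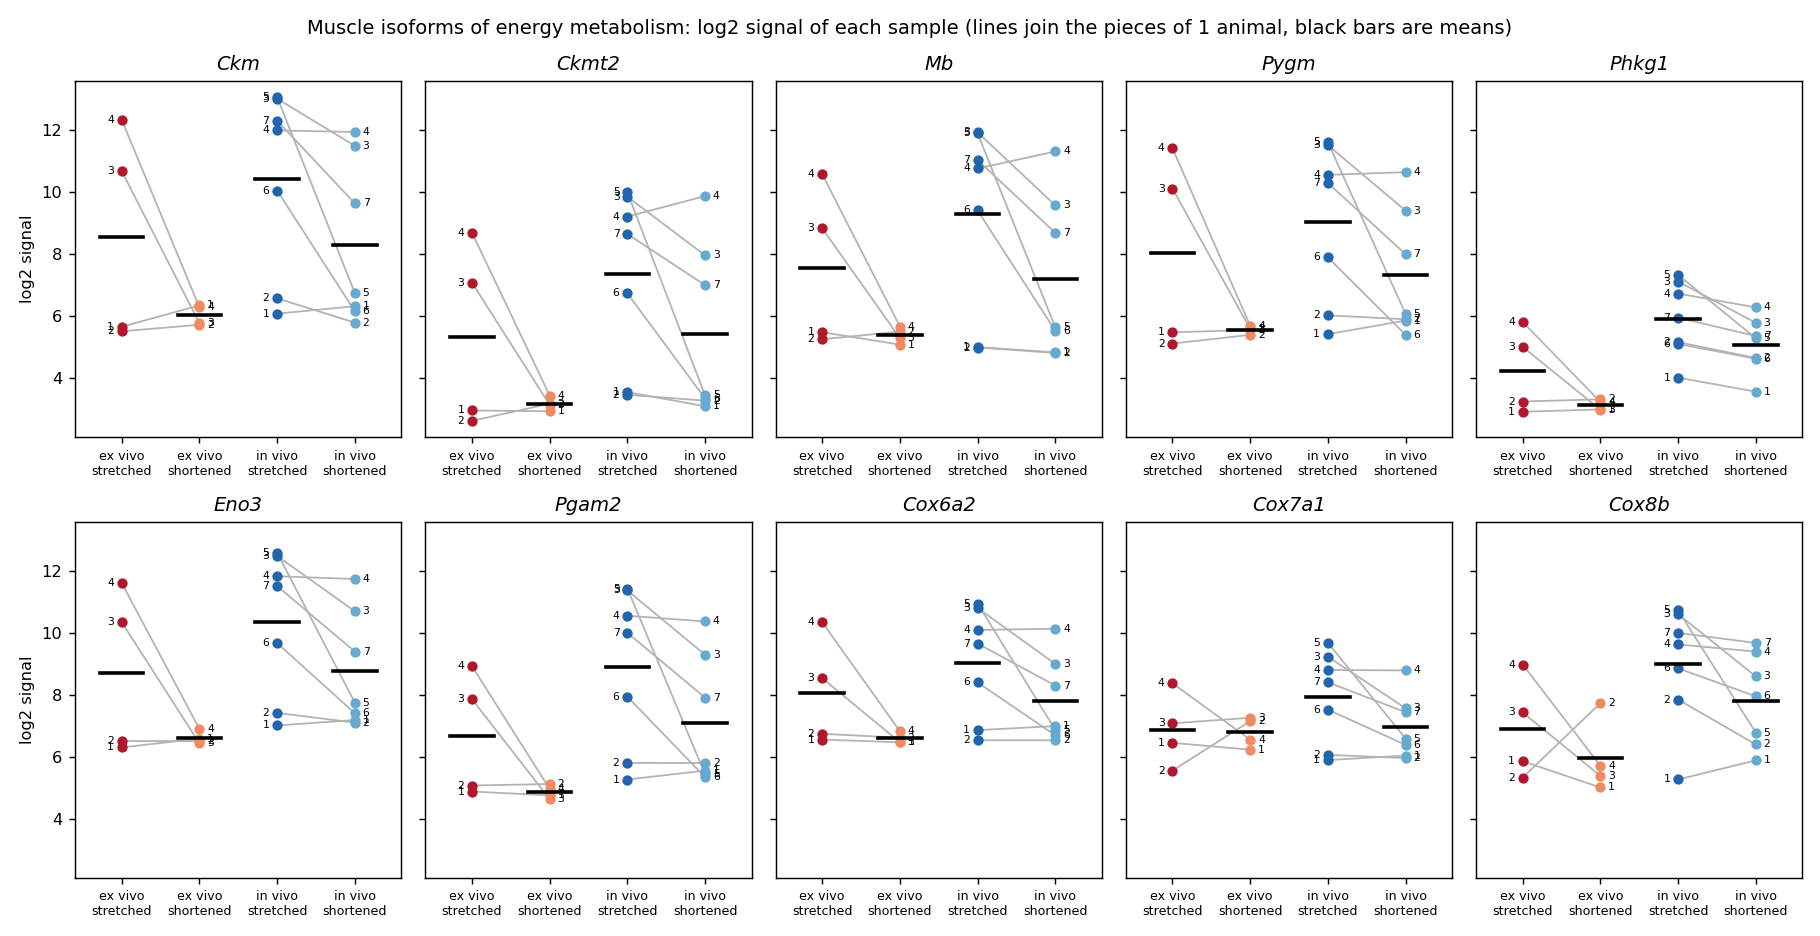
Log2 signal (y axis) of the 10 genes in every sample, with the groups on the x axis, lines joining the 2 pieces of an animal, animal numbers beside the points and black bars for group means. In the in vivo stretched group animals 3, 4, 5 and 7 lie above animals 1 and 2 for all 10 genes, and in the ex vivo stretched group animals 3 and 4 lie above animals 1 and 2 for all 10.

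In vivo, the stretched piece had the higher mean signal for all 10 genes, where 43.7% of all probes were higher, but no gene passed the test. The mean within-animal differences ran from 0.84 log2 units for Phkg1 to 2.14 for Ckm, with a median of 1.66, against a median of -0.02 over all probes tested. At an adjusted p of 0.05 limma called 0 of the 10 genes and 0 of 22626 probes, so percent called was 0. At an unadjusted p under 0.05 all 10 genes and 19.3% of all probes passed, and 7.95% of all probes passed in the higher direction. A mean difference of at least 1 log2 unit upward was reached by 8 of 10 genes and by 0.385% of all probes. The stretched piece was the higher in all 7 animals for 1 of the 10 genes, Phkg1 by the probe used, and for 1.34% of all probes. The stretched and shortened groups overlapped for each gene.

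Among the phosphagen genes, Ckm encodes the cytosolic creatine kinase of muscle. Its log2 signal was 6.08 at the lowest, 12.00 at the median and 13.07 at the highest in the 7 stretched pieces, against 5.79, 6.74 and 11.94 in the 7 shortened pieces. The pieces of animals 1 and 2 were low in both states, those of animal 4 high in both, and animals 5 and 6 were high in the stretched piece only. The differences by animal, 1 to 7, were -0.24, 0.78, 1.52, 0.05, 6.32, 3.90 and 2.67 log2 units. The mean was 2.14 ± 0.69 (SE, n = 7), a 4.42-fold ratio, with an adjusted p of 0.174 by limma and the stretched piece higher in 6 of 7 animals. Here and below each SE is the one of the limma fit, whose variance is moderated over all probes. It is not the SE of the animals' differences alone, and the SD of the 7 Ckm differences was 2.35. Ckmt2, which encodes the sarcomeric mitochondrial creatine kinase, ranged from 3.46 to 9.99 in stretched and from 3.09 to 9.87 in shortened pieces, with medians of 8.65 and 3.44. Its mean difference was 1.92 ± 0.72 (SE, n = 7; adjusted p = 0.198 by limma), and animal 4 was the exception, at -0.66.

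Myoglobin, like the creatine kinases, had its largest differences in animals 5 and 6. Mb signal ran from 4.99 over a median of 10.77 to 11.93 in stretched pieces, and from 4.81 over 5.64 to 11.32 in shortened pieces. The stretched piece was higher in 6 of 7 animals, animal 4 being the exception at -0.55, as for Ckmt2 but not for Ckm, and the mean difference was 2.09 ± 0.71 (SE, n = 7; adjusted p = 0.182 by limma). A second probe annotated to Mb alone did not show this: it stayed between 4.20 and 5.30 in all 22 samples, with a mean difference of 0.10 in vivo and 0.11 ex vivo. The 2 Mb probes therefore disagree, and the values given are those of the brighter one.

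Of the glycogen genes, Pygm encodes muscle glycogen phosphorylase. Its signal was 5.42 at the lowest, 10.30 at the median and 11.61 at the highest in stretched pieces, against 5.40, 6.07 and 10.65 in shortened pieces. The mean difference was 1.72 ± 0.61 (SE, n = 7; adjusted p = 0.188 by limma), higher in 5 of 7 animals. Phkg1, the catalytic subunit of muscle phosphorylase kinase, had the smallest mean difference of the 10 but the most even one. It measured 4.01 at the lowest, 5.95 at the median and 7.33 at the highest in stretched pieces, against 3.56, 5.28 and 6.28 in shortened pieces. The differences of animals 1 to 7 were 0.45, 0.51, 1.33, 0.45, 2.05, 0.48 and 0.59 log2 units, with a mean of 0.84 ± 0.19 (SE, n = 7) and an adjusted p of 0.172 by limma. A second Phkg1 probe gave a mean of 0.66 in vivo but was less even. It was higher in 6 of 7 animals, with an SD of 0.83 against 0.62 for the probe used.

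The glycolytic members had mean differences of 1.60 and 1.81. Eno3, muscle enolase, ran from 7.01 over 11.51 to 12.59 in stretched and from 7.10 over 7.75 to 11.74 in shortened pieces, and its mean difference was 1.60 ± 0.52 (SE, n = 7; adjusted p = 0.174 by limma). Pgam2, muscle phosphoglycerate mutase, ran from 5.27 to 11.43 in stretched and from 5.34 to 10.37 in shortened pieces, and its mean difference was 1.81 ± 0.64 (SE, n = 7; adjusted p = 0.188 by limma). For each of them the stretched piece was higher in 6 of 7 animals, and the largest difference belonged to animal 5, at 4.84 for Eno3 and 5.99 for Pgam2.

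The muscle subunits of cytochrome c oxidase had mean differences between 0.98 and 1.25. Cox6a2 ran from 6.53 over 9.66 to 10.94 in stretched and from 6.53 over 6.99 to 10.14 in shortened pieces (mean difference 1.25 ± 0.45, SE, n = 7; adjusted p = 0.188 by limma). Cox7a1 ran from 5.89 over 8.41 to 9.68 in stretched and from 5.96 over 6.59 to 8.79 in shortened pieces (mean difference 0.98 ± 0.34, SE, n = 7; adjusted p = 0.184 by limma). Cox8b stood apart in animals 2 and 7. It ran from 5.27 over 9.63 to 10.73 in stretched and from 5.89 over 7.95 to 9.68 in shortened pieces, and the differences of animals 1 to 7 were -0.62, 1.45, 2.01, 0.23, 3.94, 0.90 and 0.32 log2 units. In animal 2 the Cox8b difference was above that of every other member, and in animal 7 it was below every other. Its mean difference was 1.18 ± 0.44 (SE, n = 7; adjusted p = 0.200 by limma), higher in 6 of 7 animals.

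**Figure D2:**
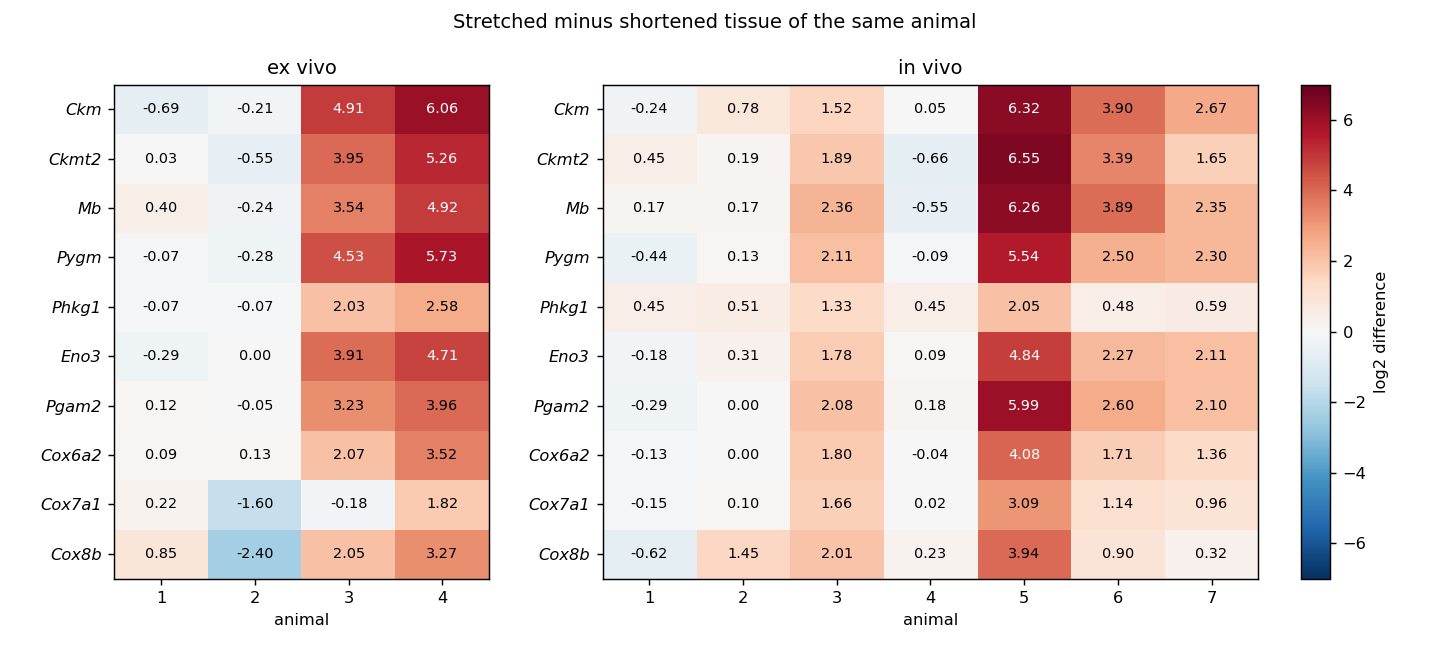
Stretched minus shortened log2 signal of each animal (columns) for the 10 genes (rows), ex vivo on the left and in vivo on the right, with the value printed in each cell and colour for its size. In vivo animal 5 has the largest value for all 10 genes, up to 6.55 for Ckmt2, and every ex vivo value above 1 belongs to animal 3 or 4.

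The size of the difference went with the animal. The median difference over the 10 genes was -0.16, 0.18, 1.85, 0.03, 5.19, 2.38 and 1.87 log2 units in animals 1 to 7 in vivo. In the same animals the median difference over the 25 sarcomere genes was -0.10, 0.16, 1.73, -0.03, 4.91, 2.13 and 1.87. The animals with large differences in the energy genes therefore also had them in the sarcomere genes. Among those, Acta1 (skeletal actin) had a mean difference of 2.22 ± 0.60, Myh4 (the myosin heavy chain of the fastest fibres) 2.76 ± 0.71 and Myoz1 1.82 ± 0.48 (SE, n = 7 each), all with an adjusted p of 0.172 by limma. With the mean of the sarcomere genes as a covariate, the median difference of the 10 energy genes was 0.14 in place of 1.66. The gene values then lay between -0.01 for Ckmt2 and 0.45 for Phkg1, and Phkg1 alone kept an unadjusted p under 0.05 (0.0314; adjusted p = 0.737 by limma). Without animals 5 and 6 the median was 0.75.

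RNA quality also split the in vivo animals. The Gapdh control probes at the 3′ end exceeded those at the 5′ end by 0.11 to 0.27 log2 units in the pieces of animals 1 to 3 and by 0.87 to 3.61 in those of animals 4 to 7. Within these sets, taken up after the data were seen, the median difference of the 10 energy genes was 0.66 in animals 1 to 3 and 2.45 in animals 4 to 7. The Gapdh measure itself differed between the pieces of an animal by -0.22 ± 0.98 (stretched minus shortened, SD, n = 7), and its part in the result was not tested.

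**Figure D3:**
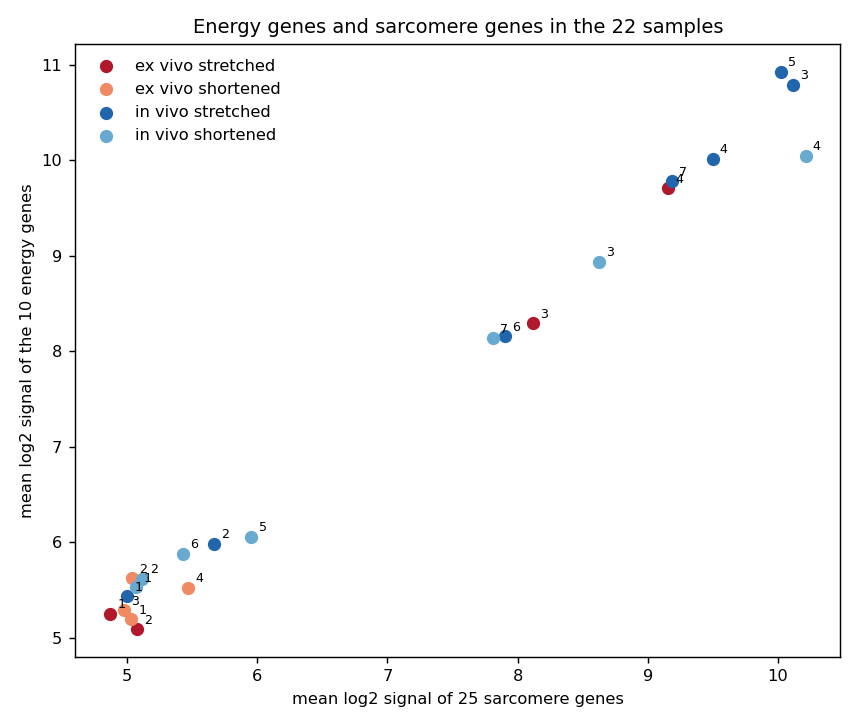
Mean log2 signal of the 10 energy genes (y axis) against the mean log2 signal of 25 sarcomere genes (x axis), 1 point for each of the 22 samples with its animal number, coloured by group. Values are as deposited, not centred between the settings. The energy mean is high where the sarcomere mean is high, but no ex vivo shortened piece is high in either. In that group the sarcomere mean is 4.97 to 5.47 and the energy mean 5.19 to 5.62. The in vivo shortened piece of animal 4 has the highest sarcomere mean (10.21). Its energy mean of 10.05 is below the 10.79 and 10.93 of the in vivo stretched pieces of animals 3 and 5.

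The members moved together across samples. Over the 14 in vivo samples, which share animals in pairs, the correlation between members ranged from 0.867 to 0.998 with a median of 0.979 over 45 pairs, and over the 8 ex vivo samples from 0.697 to 0.997 with a median of 0.983. Against the standardized mean of the members, the lowest in vivo values were those of Cox8b (r = 0.923) and Phkg1 (r = 0.932), and the lowest ex vivo values those of Cox7a1 (r = 0.797) and Cox8b (r = 0.870). The 5 other genes of the array most like that mean were all genes of the sarcomere or of its calcium store. They were Tmod4 (r = 0.997 in vivo, n = 14), Tcap (0.996), Casq1 (0.995), Ttn (0.995) and Actn3 (0.992), and over the 8 ex vivo samples their r was 0.990, 0.992, 0.989, 0.981 and 0.978. Ttn encodes titin and Tcap the protein that caps it at the Z disc, Actn3 the Z disc actinin of fast fibres, and Casq1 the calcium-binding protein of the fast sarcoplasmic reticulum.

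Animal 4 of the in vivo set had high signal of the energy genes in both pieces, and its pieces differed in slow-fibre genes. In its shortened piece Myh7, the slow myosin heavy chain, measured 7.96 and Myl2, the slow regulatory light chain, 9.60, while the other shortened pieces lay between 4.86 and 5.25 for Myh7 and between 3.92 and 4.44 for Myl2. Both genes were singled out after their values were seen. In this animal Ckmt2 and Mb had the lowest differences (stretched minus shortened) of the 10 genes, the -0.66 and -0.55 given above. The oxidase subunits Cox6a2, Cox7a1 and Cox8b differed by -0.04, 0.02 and 0.23, the glycogen genes Pygm and Phkg1 by -0.09 and 0.45, and Ckm, Eno3 and Pgam2 by 0.05, 0.09 and 0.18.

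Ex vivo, the stretched piece again had the higher mean for all 10 genes, where 50.4% of all probes were higher, with a wide spread between animals and no gene past the test. The mean differences ran from 0.07 for Cox7a1 to 2.52 for Ckm, with a median of 1.95 against 0.00 over all probes. Limma called 0 of the 10 genes and 0 of 22626 probes, so percent called was 0. At an unadjusted p under 0.05 the test passed 3 of 10 genes, Mb, Pgam2 and Cox6a2, and 11.1% of all probes, with 5.23% passing in the higher direction. A mean difference of at least 1 log2 unit upward was reached by 8 of 10 genes and by 0.389% of all probes. The stretched piece was higher in all 4 animals for 1 gene, Cox6a2, and for 10.8% of all probes. The groups overlapped for each gene.

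For Ckm, Pygm and Mb the shortened explants were low and close to each other. Ckm signal was 5.66, 5.51, 10.68 and 12.34 in the stretched pieces of animals 1 to 4, against 6.35, 5.72, 5.77 and 6.28 in their shortened pieces. Animals 3 and 4 were high in the stretched piece only, and in animals 1 and 2 the stretched piece was slightly below the shortened one. The mean difference was 2.52 ± 1.17 (SE, n = 4; adjusted p = 0.485 by limma), and the SD of the 4 differences was 3.46. Pygm measured 5.48, 5.11, 10.12 and 11.42 in stretched, against 5.55, 5.39, 5.59 and 5.69 in shortened pieces (mean difference 2.48 ± 1.05, SE, n = 4; adjusted p = 0.452 by limma). Mb had 5.48, 5.25, 8.83 and 10.58 in stretched, against 5.08, 5.50, 5.29 and 5.66 in shortened pieces (mean difference 2.15 ± 0.84, SE, n = 4; adjusted p = 0.430 by limma). Each of these genes split the 4 stretched pieces in the same way.

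Ckmt2 differed by 2.17 ± 0.97, Eno3 by 2.08 ± 0.88, Pgam2 by 1.82 ± 0.71, Cox6a2 by 1.45 ± 0.57 and Phkg1 by 1.12 ± 0.47 log2 units (SE, n = 4 each), with adjusted p of 0.430 to 0.471 by limma. Phkg1 measured 2.91, 3.24, 5.01 and 5.81 in stretched, against 2.99, 3.31, 2.98 and 3.23 in shortened pieces, and animals 1 and 2 each differed by -0.07. Its second probe gave a mean difference of 1.09. The median difference over the 25 sarcomere genes was 0.03, -0.03, 3.25 and 4.13 in animals 1 to 4, beside a median of 0.06, -0.23, 3.39 and 4.34 over the energy genes. With the sarcomere mean as a covariate the median of the 10 energy genes was -0.08. With 1 animal left out it ran from 1.12, without animal 4, to 2.61, without animal 2, and without both animals 3 and 4 it was -0.16, so the direction rests on those 2 animals.

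Cox7a1 and Cox8b had the smallest mean differences of the 10 genes in the explants. Cox7a1 measured 6.45, 5.55, 7.08 and 8.37 in the stretched pieces of animals 1 to 4, against 6.23, 7.15, 7.26 and 6.56 in the shortened pieces. Stretched pieces were higher in animals 1 and 4 and lower in animals 2 and 3, and the mean difference was 0.07 ± 0.48 (SE, n = 4; adjusted p = 0.972 by limma). Without animal 4 it was -0.52, and without animal 2 it was 0.62. Cox8b measured 5.86, 5.33, 7.43 and 8.98 in stretched, against 5.01, 7.73, 5.38 and 5.71 in shortened pieces. The shortened piece of animal 2 was the highest of its group, and the mean difference was 0.94 ± 0.83 (SE, n = 4; adjusted p = 0.711 by limma), higher in 3 of 4 animals. Without animal 2 it was 2.06, without animal 3 it was 0.57 and without animal 4 it was 0.16.

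That shortened piece of animal 2 also carried the highest signal of its group for 2 brown adipocyte markers and for the mean of the white adipocyte list. Ucp1, the uncoupling protein of brown fat, measured 4.33, 4.67, 4.27 and 4.28 in stretched, against 4.20, 6.56, 4.38 and 4.38 in shortened pieces. Cidea, a lipid droplet protein abundant in brown fat, measured 4.02, 4.05, 3.93 and 3.66 in stretched, against 3.99, 7.33, 4.02 and 4.47 in shortened pieces. Ckm in the same piece was 5.72, the lowest of its group, and Acta1 was 8.35. The whole brown list moved less: its 8 genes measured out of 10 had a mean signal of 5.43 to 5.61 in stretched, against 5.29 to 5.82 in shortened explants, and 4 of the 8 were higher in the stretched piece of animal 2. Zic1, on the same list, ran the other way in animal 2, with 8.42 in the stretched and 5.40 in the shortened piece. The mean of the 8 white adipocyte genes was 7.94 to 8.80 in stretched, against 7.50 to 9.25 in shortened explants, the 9.25 being that of animal 2. Of these 8 genes 1 was higher in the stretched piece of animal 2, where the list differed by -0.57, and 0 were in that of animal 4, where Cox8b differed by 3.27. The part of these markers in the values of Cox7a1 and Cox8b was not tested.

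**Figure D4:**
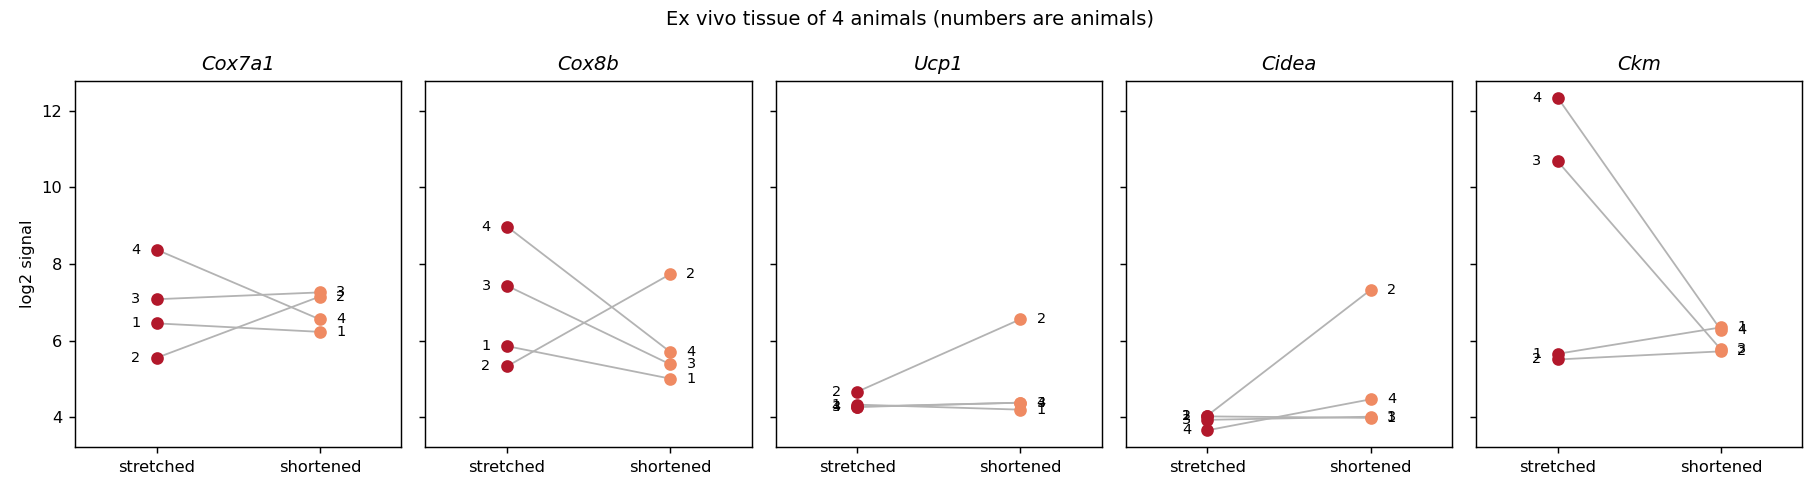
Log2 signal (y axis) of Cox7a1, Cox8b, Ucp1, Cidea and Ckm in the stretched and shortened ex vivo pieces (x axis) of 4 animals, with lines joining the pieces of an animal. The shortened piece of animal 2 is the highest of its group for Cox8b, Ucp1 and Cidea, at 7.73, 6.56 and 7.33, while its Ckm signal of 5.72 is the lowest. For Cox7a1 that piece is not the highest of its group. Zic1, from the same brown list, ran the other way in animal 2 and is not drawn.

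In vivo, Cidea lay between 4.91 and 7.64 in stretched, against 4.68 and 7.04 in shortened pieces, with a mean difference of 0.93 ± 0.35 (SE, n = 7; adjusted p = 0.198 by limma) and the stretched piece higher in all 7 animals. Its value was above 7 in both pieces of animal 7, the animal whose shortened piece had the highest Cox8b signal of its group (9.68). Ucp1 did not stand out there, at 4.29 and 4.57. The brown list as a whole did not follow Cidea in vivo. The mean of its 8 genes was higher in the stretched piece of 1 of 7 animals and differed by -0.17 on average. Of the 8 genes, 4 had a higher mean in the stretched piece, and Zic1 was the lowest at -1.95. The white adipocyte genes were higher in most stretched in vivo pieces: Adipoq differed by 0.15 ± 0.12 and Lipe by 0.66 ± 0.19 (SE, n = 7 each), with adjusted p of 0.541 and 0.172 by limma. The mean of the 8 white adipocyte genes measured out of 10 was 8.58 to 12.25 in stretched, against 9.13 to 11.75 in shortened pieces, and animal 1 was the lowest in both states, as it was for Cox8b. This was not particular to Cox8b. Animal 1 was also the lowest for the mean of the 10 energy genes (5.44 stretched, 5.53 shortened) and of the 25 sarcomere genes (5.00, 5.07). The part of adipocyte genes in the Cox8b values was not tested.

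The difference of the stretch effect between settings, tested as an interaction over all 22 samples, passed for 0 of the 10 genes and for 0.177% of all probes. Over the 10 genes it ran from -0.91 to 0.75 log2 units (ex vivo minus in vivo), with a median of 0.22 against 0.01 over all probes, and it was above 0 for 8 of 10 genes and for 51.8% of all probes. The lowest value was that of Cox7a1, for which the stretch difference was 0.07 ex vivo and 0.98 in vivo, so that the settings differed by -0.91 ± 0.65 (SE; adjusted p = 0.543 by limma). With the sarcomere mean as a covariate it was -1.12 ± 0.40 (SE; adjusted p = 0.208 by limma).

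Between the settings, levels were compared after centring each sample on its median, with setting, animals and separate normalization confounded, so these cannot be told apart. As deposited, in vivo stretched tissue had the highest and ex vivo shortened tissue the lowest group mean for 10 of 10 genes. The groups between them changed places: as deposited, ex vivo stretched tissue was above in vivo shortened tissue for 4 genes, Ckm, Mb, Pygm and Cox6a2, with SDs of at least 1.38 in both groups. This order was not centred, and sample medians were 6.85 to 6.90 ex vivo against 7.28 to 7.41 in vivo. Ckmt2 (5.34 ex vivo stretched, 5.43 in vivo shortened), Eno3 (8.69, 8.75) and Cox7a1 (6.86, 6.97) had gaps smaller than that between the medians of the settings. After centring, shortened tissue had lower values ex vivo than in vivo for 9 of 10 genes, where 54.3% of all probes were higher ex vivo, with a median difference of -1.44 against 0.08 over all probes. Limma called 1 of the 10 genes, Phkg1, where 66.5% of all probes were called and 29.6% were called lower. As deposited, Phkg1 signal was 2.99, 3.31, 2.98 and 3.23 ex vivo, against 3.56 at the lowest, 5.28 at the median and 6.28 at the highest in vivo. After centring the groups overlapped, and Phkg1 was lower ex vivo by 1.49 ± 0.40 log2 units (adjusted p = 0.0051 by limma). On average 7.09% of all probes lay below Phkg1 in ex vivo shortened tissue, and the deposited values hold no measure of background, so how far that signal stood above background was not tested and the size of the difference is uncertain. Ckm differed by -1.81 ± 1.16 (adjusted p = 0.185 by limma).

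Cox7a1 alone was the higher ex vivo among shortened pieces, by 0.29 ± 0.48 (SE; adjusted p = 0.606 by limma). Without centring it was -0.17. With the sarcomere mean as a covariate it was 0.94, with an adjusted p of 0.00316 by limma, and Phkg1 was -0.98 (adjusted p = 0.00247 by limma). That fit called 3 of the 10 genes, where 63.2% of all probes were called. In stretched tissue 0 of 10 genes were called between the settings, where 63.5% of all probes were, and the differences ran from -1.78 to -0.55, all below 0 where 53.6% of all probes were above it. Phkg1 was again lower ex vivo there, by -1.23 ± 0.68 (SE; adjusted p = 0.133 by limma).

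Isoforms of the same enzymes that other tissues use had mean differences near 0 in vivo. Of 12 such genes listed, 11 were measured. In vivo 6 of the 11 were higher in the stretched piece, with a median of 0.05 and a range from -0.27 to 0.17 log2 units, and ex vivo 5 of 11, with a median of -0.04 and a range from -0.52 to 0.14. None of the 11 was called in either setting, and 2 in each had an unadjusted p under 0.05, where 19.3% of all probes had one in vivo and 11.1% ex vivo. Ckb, the brain-type creatine kinase, differed by -0.10 ± 0.06 in vivo, where Ckm differed by 2.14. Pygb and Pygl, the brain and liver phosphorylases, differed by 0.14 ± 0.06 and 0.05 ± 0.05, and Pgam1 by 0.05 ± 0.05 (SE, n = 7 each). Cox6a1, Cox7a2 and Cox8a, the widely used oxidase subunits, differed by 0.09 ± 0.04, 0.12 ± 0.06 and 0.17 ± 0.08 (SE, n = 7 each).

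Others of that list were Ckmt1 at -0.06, Cygb (cytoglobin, a globin of fibroblasts) at -0.10, Phkg2 at -0.01 and Eno2 at -0.27 in vivo. Ex vivo, Pygl and Pgam1 were lower in the stretched piece of all 4 animals, by -0.52 ± 0.10 and -0.32 ± 0.05 (SE, n = 4 each), with an adjusted p of 0.352 by limma. For Pygl the stretch difference was -0.52 ex vivo and 0.05 in vivo, and the difference between settings passed the test, at -0.57 with an adjusted p of 0.0464 by limma. That is close to the threshold, and the Pygl call was not followed in the alternative fits. Their count of called probes ran from 0 to 663, against 40 in the main fit.

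**Figure D5:**
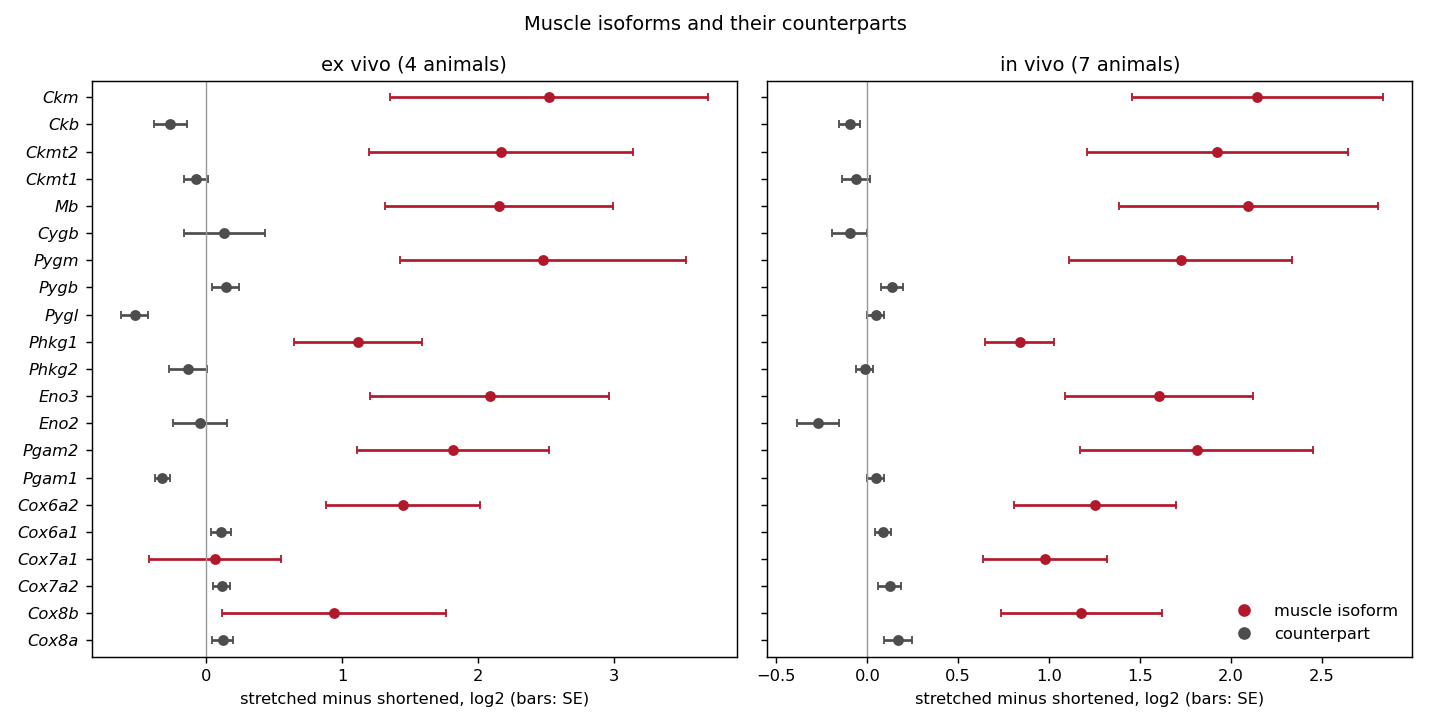
Mean stretched minus shortened log2 difference (x axis, bars are SE from the limma fit) of the muscle isoforms in red and their counterparts in grey (rows), ex vivo with 4 animals on the left and in vivo with 7 animals on the right. The counterparts lie between -0.52 and 0.17, and all muscle isoforms except ex vivo Cox7a1 lie at 0.84 or above.

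The wider set of genes of glycogen, glucose, fat and phosphate metabolism in muscle held 32 genes, of which 29 were measured. In vivo 27 of 29 were higher in the stretched piece, where 43.7% of all probes were, 23 of them with an unadjusted p under 0.05, where 7.95% of all probes were higher with such a p, and 0 were called. The median was 0.50 log2 units. The 3 with the smallest p were Hk2 (hexokinase 2) at 0.60 ± 0.15, Ldha (lactate dehydrogenase A) at 0.36 ± 0.10 and Ucp3 (the uncoupling protein of muscle mitochondria) at 0.52 ± 0.14 (SE, n = 7 each), all with an adjusted p of 0.172 by limma. Fat also expresses several genes of this set. Ex vivo 20 of 29 were higher in the stretched piece, against 50.4% of all probes, and 5 of them had an unadjusted p under 0.05, against 5.23% of all probes. In either direction 9 of 29 had such a p, against 11.1% of all probes. Those lower in the stretched piece were Gys1 (-0.57), Pgm1 (-0.47), Slc16a3 (-0.33) and Ldha. The median was 0.09, and Hk2 and Ldha differed by -0.38 ± 0.30 and -0.19 ± 0.07 (SE, n = 4 each). Pfkm, the muscle phosphofructokinase, and Ak1, adenylate kinase, were singled out after their values were seen. Pfkm differed by 1.29 ± 0.47 ex vivo and 0.86 ± 0.32 in vivo, and Ak1 by 0.85 ± 0.13 ex vivo and 0.71 ± 0.24 in vivo. For both the stretched piece was higher in all 4 explant pairs, as it was for 10.8% of all probes.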

How the data were processed

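RNA extracted with Tri-Reagent was labelled as biotin cRNA and measured on arrays. The deposited values are log2 signals, made by the authors with RMA and the affy package per the submitters' processing notes, with no version given in the sources used here. RMA corrects background, normalizes quantiles and sums up the probes of a set, which evens out differences that all genes of a setting share. Samples were grouped by title, and equal numbers in a setting were taken as 1 animal, following the study's statement that stretched and shortened tissue were compared within an animal. Samples of an animal deviated together from their group means, with r of 0.109 to 0.284 ex vivo and 0.385 to 0.867 in vivo, and 3 of 4 stretched samples ex vivo and 6 of 7 in vivo correlated best with the shortened sample of their own number. No pair of samples held identical values.

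Of 22690 probes, 64 control probes were left out. A single gene symbol was given for 20380 probes, several for 691 and none for 1555. Models were fitted to all 22626 probes with limma 3.58.1 (R 4.3.3), using lmFit and then eBayes with its trend option, and p-values were adjusted by Benjamini-Hochberg over all of them (threshold 0.05). The stretch effect was estimated per setting with animal blocks, its difference between settings from all 22 samples and 11 such blocks, and ex vivo minus in vivo tissue from median-centred values. The fits were run on simulated data whose spread was smaller than that of the members' differences. Those runs cannot tell whether differences as uneven as the members' would be called. Alternatives changed the block, normalization, centring, filter (a mean of at least 6), variance model, probe choice, threshold, animals and the use of sarcomere genes as a covariate. Animal sets 1 to 3 and 4 to 7 were added after seeing the data.

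Named genes are the members, their counterparts, the 3 of each further list with the smallest p in vivo, Acta1, Myh4, Adipoq, Ucp1, Col1a1, and the 5 genes most like the members. Per gene the brightest probe was used. The members and lists were chosen with earlier results of these data known. Gene positions follow RefSeq on GRCm38.p6.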

Additional observations from a re-analysis of the deposited data

Results flagged for a closer look

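A value was singled out where 1 sample of a group lay further from the others than Dixon's 95% limit allows, which chance gives in about 5% of groups. Of 216 groups of values, 24 were singled out, and none of them belonged to a muscle isoform. Most came from animal 1 of the in vivo set. Its stretched piece was the lowest for Pygb (9.725), Pgam1 (10.5) and Cox6a1 (12.95) among the counterparts and for Hk2 (8.471), Ldha (11.25) and Ucp3 (6.209) among the other energy genes. The same held for the adipocyte genes Adipoq (10.93), Cidec (7.793), Lipe (7.553) and Cebpa (9.01) and for the smooth muscle gene Myh11 (5.134). Its shortened piece was the lowest for Pygb (9.868), Adipoq (11.58), Cidec (8.434) and Cebpa (9.173).

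In the shortened in vivo piece of animal 4 the slow-fibre genes Myh7 (7.962) and Myl2 (9.596) lay far above the other animals. In ex vivo animal 2, Ucp1 stood out in the stretched (4.667) and the shortened piece (6.559), and Cidea in the shortened piece (7.325). Cidea was also high in the shortened in vivo piece of animal 7 (7.037). Single values stood out for Pygl (9.347, the stretched ex vivo piece of animal 4), Fap (8.222, the stretched ex vivo piece of animal 1) and Krt1 (5.02, the stretched in vivo piece of animal 5). Pygl differed between settings in its stretch effect, by -0.5706 log2 units (ex vivo minus in vivo), a call that was not followed in the alternative fits.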

How the results depend on the processing

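In vivo, 0 probes were called in each of 23 alternatives, and the median difference of the 10 genes ran from 0.14, with the sarcomere mean as a covariate, to 2.45. With that covariate Ckmt2 was -0.011. Without the animal block no probe was called in either setting: adjusted p for Ckm in vivo was 0.981 with no replicate block, against 0.174 with it, and the block changed no call on a muscle isoform. Ex vivo, a fit of all 22 samples called 661 probes, none of them a member. The ex vivo median was -0.078 with the covariate, where Ckm was -0.36, Ckmt2 -0.19, Pygm -0.090, Phkg1 -0.035, Eno3 -0.067, Cox7a1 -0.70 and Cox8b -0.69. Without animals 3 and 4 it was -0.16, with Ckm at -0.45, Ckmt2 -0.26, Pygm -0.18, Phkg1 -0.072, Eno3 -0.14, Cox7a1 -0.69 and Cox8b -0.78. Leaving out 1 animal moved ex vivo Cox7a1 between -0.52 and 0.62.

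For the difference between settings the count of 40 called probes moved to 3 with no replicate block, 5 after quantile normalization, 74 among probes with a mean of at least 6, 4 with no trend, 330 with array weights, 1 with the dimmest probe of each gene, 11 with the covariate and 344 at a threshold of 0.10. Leaving out 1 animal gave 0 to 663. The members' median there was -0.24 with the covariate and ran from -0.75 to 0.87 with 1 animal left out. No member was called in any of these. In shortened tissue ex vivo minus in vivo, 4 members were called with no centring (73.1% of all probes), 0 among brighter probes (70.0%; Phkg1 was not among those tested), 3 with the covariate (63.2%) and 1 to 3 with 1 animal left out (61.4% to 67.4%). Cox7a1 was -0.17 with no centring. The mean of all probes of a gene gave 8295 calls in place of 15042, over fewer features. In stretched tissue the members called were 1 with no centring (70.6% of all probes), 4 with the covariate (64.4%) and 0 to 2 with 1 animal left out (58.8% to 66.7%). The calls were 9451 among brighter probes and 7958 over gene means, in place of 14372. The causes were not tested.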

Other observations

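Several lists that hold no muscle isoform also differed between the pieces of an animal in vivo, without any gene past limma's adjusted threshold. Zic1, a transcription factor listed with the brown adipocyte markers, was lower in the stretched piece of all 7 animals, from 5.74 to 7.78 in stretched pieces against 7.63 to 9.48 in shortened pieces. Its mean difference was -1.95 ± 0.27 (SE, n = 7; adjusted p = 0.153 by limma). Ex vivo the Zic1 difference was 1.17 ± 0.48 (SE, n = 4; adjusted p = 0.446 by limma), higher in the stretched piece of 3 of 4 animals. Ebf2, from the same list, differed by -0.27 ± 0.09 ex vivo and by -0.24 ± 0.07 in vivo.

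All 10 fibroblast genes had lower means in the stretched piece in vivo, by -0.42 to -0.04, and ex vivo 6 of 10 did. For this and the counts below, 43.7% of all probes were higher in the stretched piece in vivo and 50.4% ex vivo. Pi16 and Fap, both membrane-bound proteins of fibroblasts, and Mfap5, a microfibril protein, differed by -0.42 ± 0.10, -0.21 ± 0.05 and -0.30 ± 0.07 in vivo (SE, n = 7 each; adjusted p = 0.172 by limma for each). In the explants these 3 genes differed by 0.56 ± 0.25, -0.57 ± 0.17 and -0.17 ± 0.15 (SE, n = 4 each), so Pi16 changed direction. Col1a1, a chain of type I collagen, differed by -0.34 ± 0.12 ex vivo and by -0.12 ± 0.05 in vivo. Of the smooth muscle genes, 1 of 7 was higher in the stretched piece ex vivo and 5 of 7 in vivo, with medians of -0.32 and 0.14. Of the keratinocyte genes, 2 of 8 were higher ex vivo and 6 of 8 in vivo, with medians of -0.10 and 0.18. Krtdap, a protein of differentiating keratinocytes, was lower in the stretched in vivo piece of all 7 animals (-1.27 ± 0.17, SE, n = 7; adjusted p = 0.153 by limma). Its explant difference was 0.40 ± 0.31 (SE, n = 4), with the stretched piece higher in 3 of 4 animals. Trp63, a transcription factor of basal keratinocytes, was higher in all 7 in vivo (0.64 ± 0.18, SE, n = 7; adjusted p = 0.172 by limma) and in all 4 explant pairs (0.33 ± 0.12, SE, n = 4).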
